A study of Drosophila melanogaster with 9 samples.

Results

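The comparison is between the 3 fed SFC libraries and the 3 starved AFC libraries of a TRAP-seq series of Drosophila melanogaster follicle cells, 6 of the 9 libraries of the series, and they were taken as the labels name them. SFCs are the stretch follicle cells, the flat somatic cells that cover the nurse cells of late egg chambers and take part in the death and clearance of those nurse cells. AFCs are all follicle cells from stage 3 on. In a well-fed fly nurse cells die as part of normal egg development, whereas protein starvation leads to the death of whole egg chambers in mid-oogenesis and to their engulfment by the follicle cells around them. In both settings follicle cells clear dying germline, and the comparison sets them side by side.

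In TRAP-seq, GFP-tagged RpL10Ab, a protein of the large ribosomal subunit, is made under a GAL4 driver, ribosomes are pulled down through the tag, and the mRNA on them is sequenced. Fed SFC libraries came from PG150-Gal4>UAS-Rpl10A-GFP flies, aged at 25 °C over 3 days before a period of 2 days with yeast paste. For starved AFC, GR1-Gal4>UAS-Rpl10A-GFP flies had no yeast for 16 to 20 h, on agar made with apple juice. The remaining 3 libraries, fed AFC, had the driver of the starved group and the diet of the SFC group. They are given here as a further level, and they also enter the estimate of spread behind every adjusted p. Every group carried the tagged ribosomal protein, and about 100 flies went into a library. The 2 groups compared thus differ at least in driver strain and in diet. The parts of the driver, its strain and the diet in a difference cannot be told apart from these 6 libraries alone. The age of the starved flies at collection is not given. PG150 is active in centripetal cells beside SFCs, GR1 is active in SFCs too, and weak activity is known for GR1 in the gut and for PG150 in the Malpighian tubules. Thoraxes and abdomens were collected, so mRNA of other tissues can be in the pull-down. The labels call the GR1 samples main body follicle cells. Each group was made in biological triplicate, and whether replicates came from separate crosses is not given in the sources used here.

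Library totals were 30551253 to 45910215 reads in fed SFCs and 36522866 to 42282780 reads in starved AFCs. Ribosomal RNA took 4.31 to 36.3% of reads in fed SFCs and 5.38 to 16.8% in starved AFCs. Fed SFC replicate 2 had the fewest reads and the most ribosomal RNA. It stood apart from the other libraries, at 89.9 on a first principal component that held 61.8% of the variance, against -29.4 to -1.79 for the other 5 libraries. RpL10Ab, the gene of the tag, was read at 2211, 2105 and 1132 CPM (read counts scaled to a common library size) in fed SFCs, against 3364, 2474 and 2715 CPM in starved AFCs. These groups did not overlap, but the difference missed the threshold (adjusted p = 0.347).

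The cell type of the labels was checked against markers. None of 11 SFC markers was called by edgeR, 2 had an unadjusted p below 0.05, as had 1950 of all 10870 genes tested (17.9%), and neither DESeq2 nor limma-voom called any. Of the 11, 9 had a positive log2 fold change and 2 a negative one, with a median of 0.30, against -0.016 over all genes tested. The summed level of the 11 markers was 853, 1223 and 931 CPM in fed SFCs and 911, 968 and 840 CPM in starved AFCs. These sums overlapped, so the summed marker list does not set the SFC libraries apart. Of 3 markers of mid and late follicle cells (Yp1, Sox14 and br) Sox14 was called lower, and their median log2 fold change was 0.60. The V-ATPase subunit gene Vha16-1 had 511, 653 and 526 CPM in fed SFCs and 473, 471 and 430.4 CPM in starved AFCs. Vha100-2, another V-ATPase subunit gene of the list, had the opposite order, with 197, 164 and 169 CPM in fed SFCs and 261, 292 and 234 CPM in starved AFCs. Of markers of other tissues, germline genes summed to 7219 to 9452 CPM in fed SFCs and 6897 to 8193 CPM in starved AFCs. Midgut genes summed to 4589 to 7579 CPM in fed SFCs and 7488 to 9802 CPM in starved AFCs. Fat body genes summed to 1314 to 2716 CPM in fed SFCs and 486 to 1085 CPM in starved AFCs. Neuron markers reached at most 17.4 CPM and the markers of male reproductive tissue at most 4.24 CPM in any of the 6 libraries. In such bulk libraries fewer cells of a type and less mRNA per cell cannot be told apart.

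Of 10870 genes tested, 241 were called different between fed SFCs and starved AFCs (2.22%), 135 of them higher in fed SFCs (1.24%) and 106 lower (0.975%). A gene is called when its p from edgeR's quasi-likelihood test, adjusted over all genes tested, is below 0.05, and every adjusted p below is of this kind unless another tool is named. All 241 had groups that did not overlap, as had 24.6% of all genes tested. The median size of the log2 fold change was 2.04 for the higher genes and 1.92 for the lower genes. Among the 135 higher genes the mean level in fed AFCs lay between the other group means for 88, below both for 36 and above both for 11. Among the 106 lower genes it lay between them for 65, above both for 40 and below both for 1. The counts depended on single libraries. Without fed SFC replicate 1 there were 220 higher and 163 lower genes, without fed SFC replicate 2 there were 65 and 50, and without fed SFC replicate 3 there were 114 and 52. Without starved AFC replicate 1 there were 52 higher and 59 lower genes, without starved AFC replicate 2 there were 71 and 102, and without starved AFC replicate 3 there were 82 and 44. DESeq2 called 462 higher and 429 lower genes, which include all 241. The fit on the 6 compared libraries alone called 124 higher and 87 lower genes, 183 of them among the 241. Among genes named below, BomS1, GstD2, GstD8, Ilp8, Hsp68, numb, Jon25Biii, Jon65Aii, Alp4, MtnD, MtnE and Obp99a lost their calls in that fit.

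**Figure D1:**
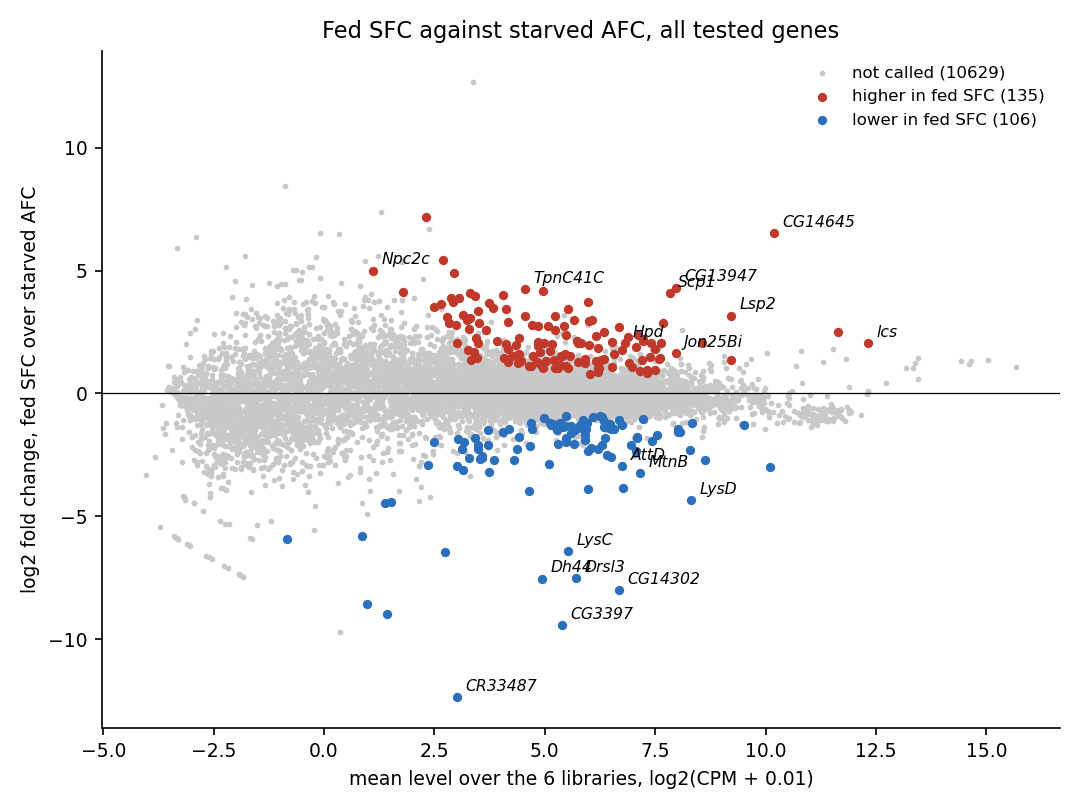
Log2 fold change of fed SFC over starved AFC (vertical axis) against the mean level over the 6 libraries on a log2 CPM scale (horizontal axis). Red and blue points are the 135 genes called higher and the 106 called lower in fed SFCs, gray points the other genes tested, and among the labelled genes CG14645 (6.52) is the highest and CR33487 (-12.36, with no read in SFCs) the lowest.

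The 10 higher genes with the smallest adjusted p were CG13947, TpnC41C, CR13656, CG14711, Hpd, CG14645, CG42305, CG3906, Gabat and CG44142. Each of them was called with any single library left out. CG14711, CG42305, Hpd and Gabat lie over parts of Zaf1, CG17325, CtIP and Tom20, and the kit does not mark strand, so reads of overlapping genes cannot be told apart. CG13947 (chromosome 2L from 779173 to 779655 of the BDGP6 assembly) had 399.8, 614 and 414 CPM in fed SFCs and 22.2, 23.8 and 25.7 CPM in starved AFCs. Every SFC library thus lay far above every starved library, with a 19.9-fold difference of the means (log2 fold change 4.32 ± 0.30 (SE), adjusted p = 3.89e-05). Fed AFCs were read at 57.3, 33.7 and 34.4 CPM, near the starved level. CG14645 (chromosome 3R from 4335098 to 4335506, over part of Skp2) had 2052, 3427 and 1441 CPM in fed SFCs and 16.7, 17.1 and 41.5 CPM in starved AFCs. Its means differed 92.1-fold (log2 fold change 6.52 ± 0.73, adjusted p = 0.00121), and fed AFCs had 10.7, 65.4 and 26.3 CPM. Gabat, which encodes GABA transaminase, an enzyme that breaks down the transmitter GABA, had 329, 202 and 196 CPM in fed SFCs and 48.3, 61.1 and 55.6 CPM in starved AFCs (adjusted p = 0.00236). CG14711 had 171, 161 and 118 CPM in fed SFCs and 37.2, 37.6 and 30.4 CPM in starved AFCs, a narrow spread in both groups (adjusted p = 0.000919). Hpd and TpnC41C are taken up with their pathways. The other 4 were 6.64-fold (CR13656), 8.03-fold (CG42305), 7.78-fold (CG3906) and 10.9-fold (CG44142) higher in the SFC means.

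Jhbp12 and Obp56a had some of the largest fold changes among those read at 10 CPM or more in the higher group. Jhbp12, by its name a juvenile hormone binding protein gene, had 12.3, 21.5 and 3.95 CPM in fed SFCs and 0.449, 0.167 and 0.256 CPM in starved AFCs (log2 fold change 5.42 ± 0.86, adjusted p = 0.00758). Obp56a, of the odorant-binding protein family, had 24.6, 16.9 and 3.49 CPM in fed SFCs and 0.238, 0.598 and 0.665 CPM in starved AFCs (log2 fold change 4.89 ± 0.88, adjusted p = 0.0138). In both genes SFC replicate 3 was the lowest of the SFC libraries yet above all starved libraries. The call of Obp56a was lost without starved AFC replicate 1 (adjusted p = 0.0539), and limma-voom called neither gene.

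The 10 lower genes with the smallest adjusted p were CG3397, CR33487, CG12224, Dh44, MtnB, DNAlig3, CG5958, CG14302, LysC and LysD, and each was called with any single library left out. Dh44 lies over part of Fst and DNAlig3 over part of Sol1. Some were close to absent from SFC libraries and present in both AFC groups. CG3397 (chromosome 3R from 11983098 to 11984541) had 0.189, 0 and 0.105 CPM in fed SFCs and 58.5, 65.7 and 128 CPM in starved AFCs (log2 fold change -9.42 ± 0.68, adjusted p = 3.89e-05). In fed AFCs it had 248, 82.9 and 216 CPM. The gene beside it, CG12224 (chromosome 3R from 11980704 to 11982062), had 9.66, 9.75 and 4.41 CPM in fed SFCs and 88.3, 117 and 151 CPM in starved AFCs, 14.9-fold lower in the SFC mean (adjusted p = 0.00121). CR33487, annotated as a pseudogene (chromosome X from 20194360 to 20195360), had no read in any SFC library and 20.5, 18.3 and 9.67 CPM in starved AFCs. Set against a floor of 3 reads over the SFC group, it was at least 689-fold lower in SFCs (adjusted p = 5.16e-05), and fed AFCs had 13.5, 15.2 and 17 CPM.

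Other lower genes were read in every SFC library. MtnB, a metallothionein that binds copper and other metals, had 26, 37.8 and 17.7 CPM in fed SFCs and 188, 208 and 382 CPM in starved AFCs (log2 fold change -3.26 ± 0.38, adjusted p = 0.00121). DNAlig3, which encodes a DNA ligase, had 25.4, 24.9 and 26.7 CPM in fed SFCs and 138, 91.3 and 206.6 CPM in starved AFCs, 5.66-fold lower in the SFC mean (adjusted p = 0.00121). CG5958 had 105, 106 and 101 CPM in fed SFCs and 635, 373 and 546 CPM in starved AFCs, 4.98-fold lower (adjusted p = 0.00121). The starved and fed AFC means were close for these genes, at 259 and 288 CPM for MtnB, 145 and 169 CPM for DNAlig3, and 518 and 555 CPM for CG5958.

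Of the lower genes, Dh44, CG14302, Drsl3 and AttD had starved libraries above all libraries of both fed groups. Dh44, a peptide hormone of the corticotropin-releasing factor family that drives fluid secretion by Malpighian tubules, had 0.43, 0 and 0.441 CPM in fed SFCs and 34.8, 95.4 and 53.8 CPM in starved AFCs (log2 fold change -7.54 ± 0.87, adjusted p = 0.00121). Its fed AFC libraries lay between, at 7.17, 4.33 and 22.5 CPM. CG14302 had 0.448, 1.08 and 0.946 CPM in fed SFCs and 99.6, 199 and 316 CPM in starved AFCs (log2 fold change -8.00 ± 0.95, adjusted p = 0.00138), and 10.5, 6.26 and 63.2 CPM in fed AFCs. Drsl3, a drosomycin-like peptide gene, had 0.189, 1.76 and 0.0841 CPM in fed SFCs and 67.4, 63.7 and 180.3 CPM in starved AFCs (log2 fold change -7.53 ± 1.10, adjusted p = 0.0044), and 9.58, 16.6 and 61.7 CPM in fed AFCs. AttD, an attacin gene, had 14.1, 37.9 and 21.8 CPM in fed SFCs and 80.2, 188 and 304 CPM in starved AFCs (log2 fold change -2.96 ± 0.54, adjusted p = 0.0147). Fed AFCs had 12.8, 21.1 and 40.0 CPM of AttD, close to the SFC level. Between starved and fed AFCs none of the 4 passed the test (adjusted p = 0.375 for Dh44, 0.259 for CG14302, 0.968 for Drsl3 and 0.0527 for AttD). The AttD call was lost without fed SFC replicate 3 (adjusted p = 0.0558), and limma-voom did not call Dh44, Drsl3 or CG3397.

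**Figure D2:**
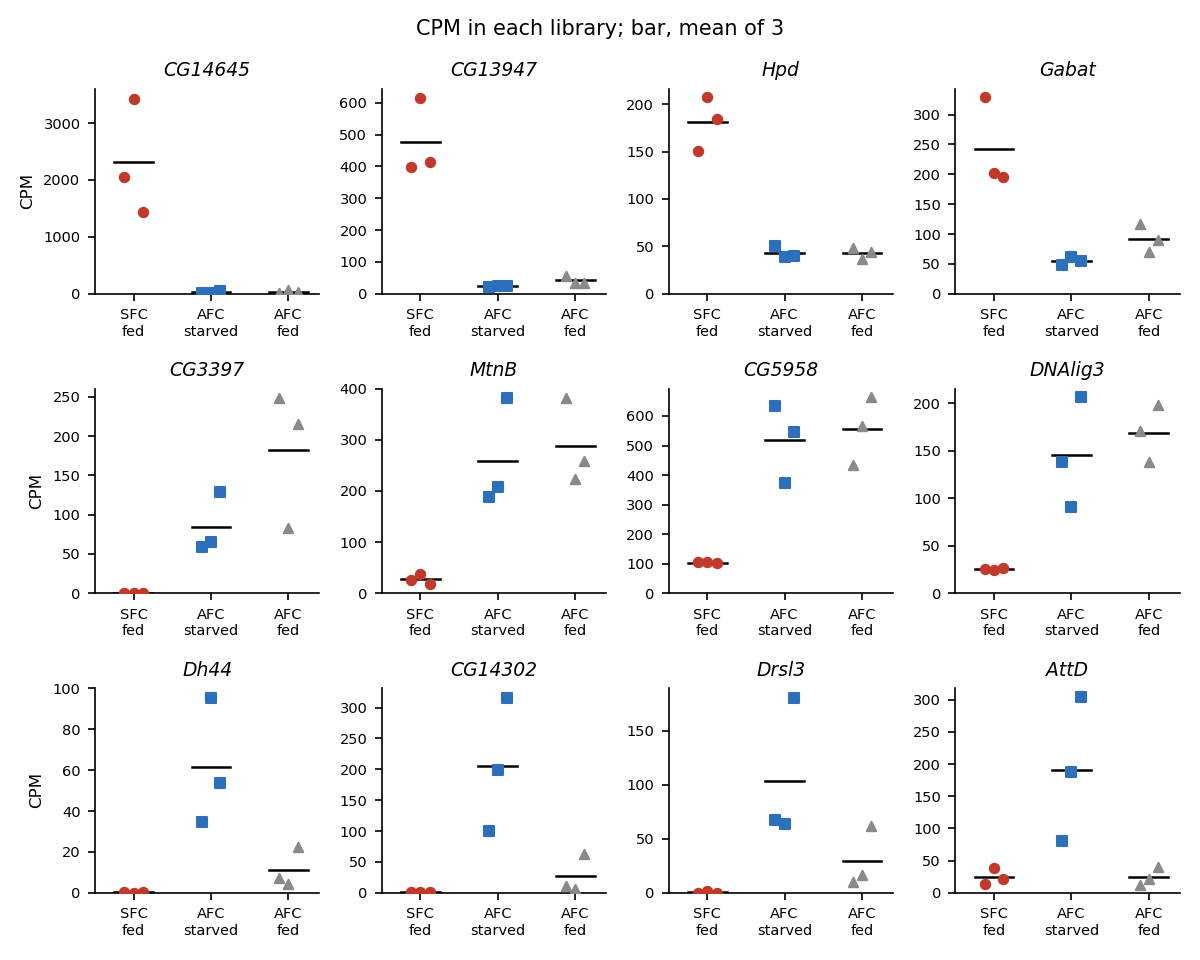
CPM of 12 genes in each library (vertical axis from 0), with fed SFC as red circles, starved AFC as blue squares, fed AFC as gray triangles and the mean of 3 as a bar. The top row is higher in SFCs than in both AFC groups, the middle row is low in SFCs, and in the bottom row the starved mean is the highest, with AttD at 190.5 CPM in starved AFCs against 24.6 CPM in each of the fed groups.

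Some genes of tyrosine breakdown were higher in fed SFCs. In this pathway a transaminase (Tat) makes hydroxyphenylpyruvate, a dioxygenase (Hpd) makes homogentisate, a further dioxygenase (hgo) opens the ring, and a hydrolase (Faa) gives fumarate and acetoacetate. Of 7 pathway genes tested 4 were called higher and none lower, against 1.24% and 0.975% of all genes. The median log2 fold change was 1.67, against -0.016 over all genes tested. Hpd (chromosome 3L from 20438166 to 20439872) had 151, 207.5 and 184 CPM in fed SFCs and 50.3, 39.3 and 40.3 CPM in starved AFCs (log2 fold change 2.06 ± 0.22, adjusted p = 0.000919). Tat had 32.8, 69.4 and 50.2 CPM in fed SFCs and 12.9, 7.77 and 16 CPM in starved AFCs (adjusted p = 0.0156). Faa had 31.8, 24.5 and 27.9 CPM in fed SFCs and 5.23, 5.29 and 10.0 CPM in starved AFCs (adjusted p = 0.0102), and hgo had 22.9, 22.6 and 28.7 CPM in fed SFCs and 8.32, 8.83 and 10.3 CPM in starved AFCs (adjusted p = 0.0356). As in every called gene, the groups did not overlap in these 4. Their fed AFC means of 42.8 (Hpd), 10.4 (Tat), 7.45 (Faa) and 6.28 CPM (hgo) were close to or below the starved means. Hn, the phenylalanine hydroxylase that feeds the pathway, had 104, 68.7 and 87.9 CPM in fed SFCs and 73.5, 78.1 and 45.3 CPM in starved AFCs, with overlap (adjusted p = 0.447). The maleylacetoacetate isomerases differed in sign without being called, with log2 fold changes of -0.97 for GstZ1 and 1.67 for GstZ2. Without starved AFC replicate 1 only Hpd was called (adjusted p = 0.0537 for Tat, 0.0539 for Faa). The call of hgo was also lost without fed SFC replicate 3, starved AFC replicate 2 or 3, or fed AFC replicate 3 (adjusted p up to 0.177).

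Some muscle genes were also higher in fed SFCs. Of 31 sarcomere genes tested 6 were called higher and none lower, against 1.24% and 0.975% of all genes. In 16 the SFC libraries were all above the starved libraries, as in 11.2% of all genes tested, and the median log2 fold change was 1.22. TpnC41C, a troponin C that senses calcium on the thin filament, had 55.4, 52.4 and 25.2 CPM in fed SFCs and 2.01, 3.04 and 1.87 CPM in starved AFCs (log2 fold change 4.26 ± 0.42, adjusted p = 0.000574). Act79B, an actin of adult muscles, had 100.3, 122 and 48.1 CPM in fed SFCs and 10.7, 14 and 9.21 CPM in starved AFCs (log2 fold change 3.00 ± 0.44, adjusted p = 0.00453). The myosin light chain genes Mlc1 and Mlc2 were also called. Mlc2 had 566, 873 and 389.9 CPM in fed SFCs and 144, 161 and 140.2 CPM in starved AFCs (adjusted p = 0.0115), and Mlc1 had 84.8, 147 and 76.3 CPM in fed SFCs and 26.2, 25.4 and 27.2 CPM in starved AFCs (adjusted p = 0.00854). The troponin genes up (troponin T) and wupA (troponin I) had log2 fold changes of 2.16 ± 0.42 and 2.37 ± 0.45 (adjusted p = 0.0219 and 0.019). Scp1, a calcium-binding protein of the sarcoplasm, had 336, 728 and 221 CPM in fed SFCs and 22.8, 42 and 10.9 CPM in starved AFCs (log2 fold change 4.09 ± 0.55, adjusted p = 0.00322), and was the only called gene of 16 in the calcium handling list, whose median was 0.18.

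Not all sarcomere genes followed. The myosin heavy chain gene Mhc had 104, 130.4 and 53.7 CPM in fed SFCs and 35.6, 46.1 and 19.1 CPM in starved AFCs, and just missed the threshold (adjusted p = 0.057), as did the tropomyosin gene Tm2 (adjusted p = 0.0531). Act88F, the actin of the indirect flight muscles, had 42.9, 41.1 and 20.7 CPM in fed SFCs and 23.3, 54.1 and 28.8 CPM in starved AFCs, with a log2 fold change of -0.02 ± 0.39. TpnC4, a troponin C of the same muscles, had 21.7, 41.7 and 20.1 CPM in fed SFCs and 23, 27.9 and 44.6 CPM in starved AFCs. Summed over the list, sarcomere genes had 3043, 3574 and 1866 CPM in fed SFCs and 1313, 1450 and 1098 CPM in starved AFCs, and 1050 to 1689 CPM in fed AFCs. The part of muscle tissue in this difference was not tested. The count of called genes ranged from 4 to 9 with 1 library left out. The calls of up and wupA were lost without starved AFC replicate 1 or 3 (adjusted p up to 0.0882 and 0.0639) and that of Mlc2 without fed SFC replicate 2 (adjusted p = 0.0523).

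Most immune effector genes had positive log2 fold changes, and some of the Toll pathway were called higher in fed SFCs. In flies the Toll pathway, triggered through the protease SPE and the ligand Spätzle, switches on antifungal drosomycin, the bomanins and the baramicins, and the Imd pathway switches on antibacterial peptides such as attacins and diptericins. Of 21 Toll effector genes tested 6 were called higher in fed SFCs and 1 lower, against 1.24% and 0.975% of all genes. The higher genes were Drs, Drsl4, BomS1, BomBc3, BomT3 and BaraA2, and the lower gene was Drsl3. The list's median log2 fold change was 1.41, and 18 of the 21 were positive. Drs, the drosomycin gene, had 333, 612 and 127 CPM in fed SFCs and 61.4, 29.7 and 57 CPM in starved AFCs (log2 fold change 2.86 ± 0.52, adjusted p = 0.0148). Drsl4 had 52.9, 214 and 87.3 CPM in fed SFCs and 11.1, 3.3 and 12.1 CPM in starved AFCs (log2 fold change 3.74 ± 0.66, adjusted p = 0.0122). In the drosomycin family the sign of the difference thus differed between members, with Drs and Drsl4 higher and Drsl3 lower. BaraA2, a baramicin gene, had 130.1, 145 and 71.5 CPM in fed SFCs and 28.6, 31.6 and 36.4 CPM in starved AFCs (adjusted p = 0.0177). The bomanin genes BomS1, BomBc3 and BomT3 had log2 fold changes of 2.72 ± 0.61, 2.76 ± 0.56 and 2.02 ± 0.40. SPE itself had 34.2, 29.6 and 30.0 CPM in fed SFCs and 12.3, 15.7 and 9.93 CPM in starved AFCs (log2 fold change 1.31 ± 0.27, adjusted p = 0.0267), and was the only called gene of 21 in the Toll pathway list.

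The Toll effectors varied widely within groups, and SFC replicate 2 and starved AFC replicate 3 were the highest of their groups. Their summed level was 1730, 3175 and 1042 CPM in fed SFCs and 584, 517 and 1423 CPM in starved AFCs, so the sums overlapped. Metchnikowin (Mtk) had 22.6, 25.3 and 17.3 CPM in fed SFCs and 9.04, 7.89 and 38.9 CPM in starved AFCs (adjusted p = 0.908). Only 1 Toll effector was called higher without fed SFC replicate 2, and 2 without starved AFC replicate 1 or without starved AFC replicate 2. BomS1, BomBc3, BomT3 and BaraA2 lost their calls in each of these 3 cases (adjusted p up to 0.143, 0.0983, 0.0931 and 0.0788), and Drs did without fed SFC replicate 2 (adjusted p = 0.0523). The SPE call was lost without fed SFC replicate 3 or starved AFC replicate 1 or 3 (adjusted p up to 0.126). Of 14 Imd effectors tested AttD, described above, was called lower and no other was called, but 12 of the 14 had a positive log2 fold change and the median was 0.74.

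Digestive enzymes of the midgut also moved in both directions. Of 40 midgut genes tested 5 were called higher in fed SFCs, all of the Jonah family of serine proteases, and 5 lower, of which 4 were lysozymes. Over all genes, 1.24% were called higher and 0.975% lower. The median log2 fold change of the list was -0.15. Jon25Bi had 319.9, 510.2 and 307 CPM in fed SFCs and 130.3, 109 and 123 CPM in starved AFCs (log2 fold change 1.65 ± 0.27, adjusted p = 0.0091). Jon25Bii had 103, 151 and 105 CPM in fed SFCs and 15.9, 13.4 and 41.2 CPM in starved AFCs (log2 fold change 2.35 ± 0.42, adjusted p = 0.0129). Jon25Biii, Jon65Aii and Jon99Fii were 1.89-fold, 3.21-fold and 2.55-fold higher (adjusted p = 0.0464, 0.0239 and 0.0134). For each of these 5 genes the fed AFC mean was the highest of the 3 group means, at 913 CPM for Jon25Bi, 314 CPM for Jon25Bii, 393 CPM for Jon25Biii, 22.5 CPM for Jon65Aii and 83.2 CPM for Jon99Fii. Starved AFCs were therefore the lowest group for them. Other Jonah genes had the opposite sign without being called, such as Jon99Ciii with 302, 409 and 285 CPM in fed SFCs and 737, 697 and 509 CPM in starved AFCs (adjusted p = 0.0929).

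The lysozymes LysB, LysC, LysD and LysE, which digest bacterial cell walls in the gut, were low in SFCs relative to both AFC groups. LysD had 16.4, 54.2 and 18.3 CPM in fed SFCs and 661, 542 and 608 CPM in starved AFCs (log2 fold change -4.35 ± 0.54, adjusted p = 0.00192), and its fed AFC mean was 1483 CPM. LysB had 7.25, 26.4 and 9.52 CPM in fed SFCs and 192, 146 and 273 CPM in starved AFCs (log2 fold change -3.83 ± 0.53, adjusted p = 0.00355). LysC had 2.05, 0 and 0.883 CPM in fed SFCs and 101, 107 and 66.9 CPM in starved AFCs (adjusted p = 0.00175), and LysE was 6.38-fold lower in the SFC mean (adjusted p = 0.00989). The fifth lower gene, mex1, a membrane protein of midgut cells, had 19.5, 20.4 and 14.3 CPM in fed SFCs and 45, 41.7 and 128 CPM in starved AFCs (adjusted p = 0.0242). Not every lysozyme was low, since LysP had 246, 480.1 and 194 CPM in fed SFCs and 98.9, 127 and 169.8 CPM in starved AFCs (adjusted p = 0.188). Jonah and Lys genes are close paralogs, LysC and LysD overlap each other, and the split of shared reads between them is uncertain. The summed midgut level averaged 5727 CPM in SFCs and 8642 CPM in starved AFCs, with overlap, and its part in these differences was not tested. The list's median was 0.23 with the length trend described below removed. Midgut genes called higher numbered 3 without fed SFC replicate 2, fed SFC replicate 3 or starved AFC replicate 3, and 2 without starved AFC replicate 1 or starved AFC replicate 2. Jon25Biii lost its call in 7 of the 9 cases with 1 library left out (adjusted p up to 0.1695), and mex1 without fed SFC replicate 2, fed SFC replicate 3 or starved AFC replicate 3 (adjusted p up to 0.0949).

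**Figure D3:**
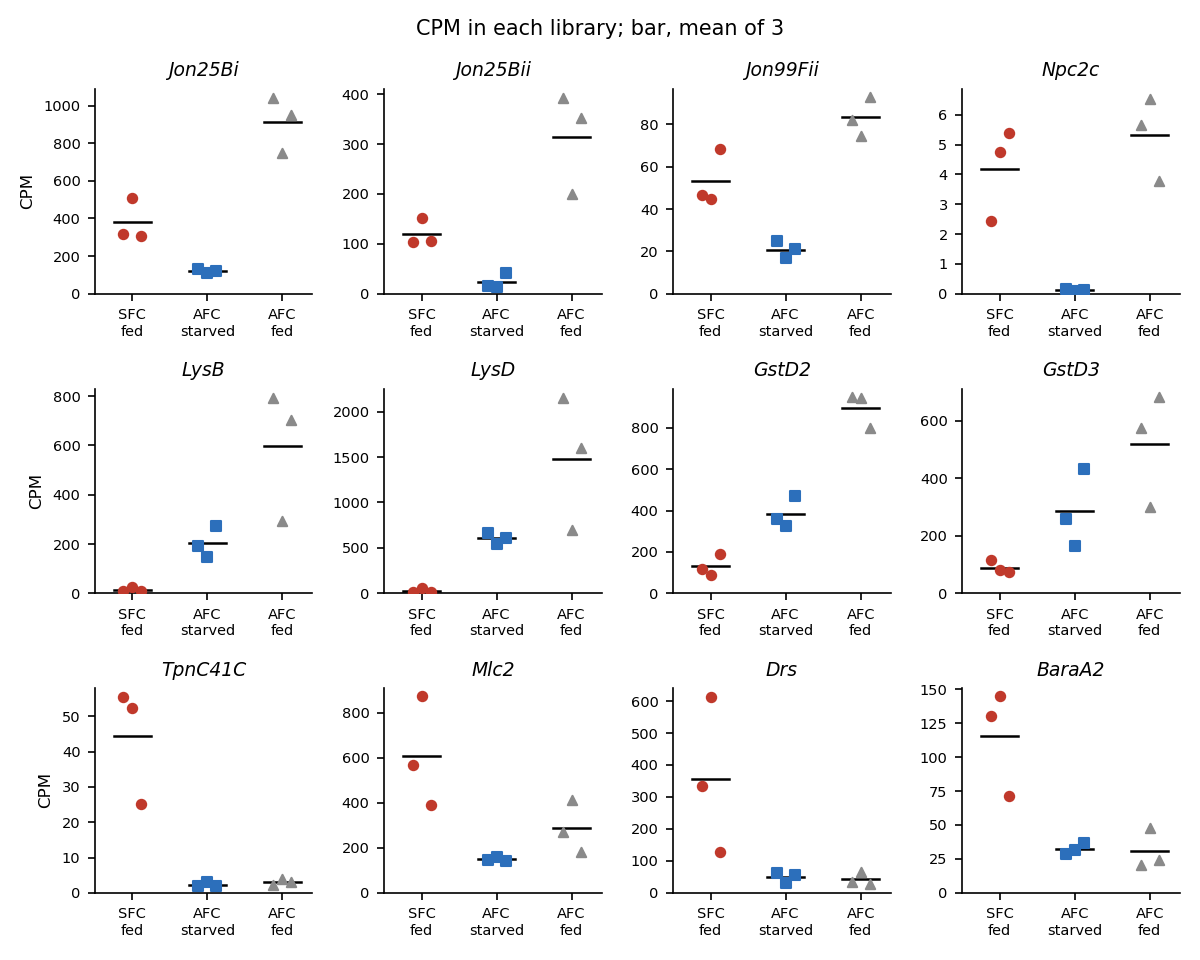
CPM of 12 genes of the described groups in each library (vertical axis from 0), with fed SFC as red circles, starved AFC as blue squares, fed AFC as gray triangles and the mean of 3 as a bar. The Jon genes and Npc2c are lowest in starved AFCs, the Lys and GstD genes are lowest in SFCs, and the muscle and Toll effector genes are highest in SFCs.

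Among detoxifying glutathione S-transferases of the D class, 3 of 10 genes tested were called lower in fed SFCs, against 0.975% of all genes. None was called higher, and the list median was -0.64. GstD2 had 116, 87.2 and 189.7 CPM in fed SFCs and 358, 324 and 471 CPM in starved AFCs (log2 fold change -1.55 ± 0.30, adjusted p = 0.0212). GstD3 had 114.6, 80.9 and 72.9 CPM in fed SFCs and 259, 166 and 431 CPM in starved AFCs (adjusted p = 0.045), and GstD8 was 5.9-fold lower in the SFC mean (adjusted p = 0.0316). All 3 had their highest mean in fed AFCs, at 897 (GstD2), 519 (GstD3) and 40.9 CPM (GstD8). GstD5 went the other way without being called, with 397, 310.0 and 1141 CPM in fed SFCs and 95, 96.2 and 241 CPM in starved AFCs (adjusted p = 0.0872). None of the D class was called without fed SFC replicate 2 or without starved AFC replicate 3, 1 was without fed SFC replicate 3 or starved AFC replicate 1, and 2 were without fed SFC replicate 1. The GstD genes lie in a cluster of close paralogs, so reads may be split between them.

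Npc2c, Lsp1beta and Lsp2 had their lowest mean in starved AFCs. Npc2c, of the Niemann-Pick type C2 family of sterol-binding proteins, had 2.43, 4.74 and 5.4 CPM in fed SFCs and 0.159, 0.0957 and 0.128 CPM in starved AFCs (log2 fold change 5.01 ± 0.77, adjusted p = 0.00609). Fed AFCs averaged 5.33 ± 1.41 CPM (SD, n = 3), overlapping SFCs. Limma-voom did not call it (adjusted p = 0.0799). Npc2c was the only called gene of 8 in its family, whose median was 0.09, against 1.24% of all genes called higher. Lsp1beta, a larval serum storage protein made in fat body, had 95, 135 and 184 CPM in fed SFCs and 15.1, 39.1 and 19.1 CPM in starved AFCs (log2 fold change 2.50 ± 0.50, adjusted p = 0.0239), and a fed AFC mean of 215 CPM. Lsp2, a related storage protein, had 566, 933 and 1705 CPM in fed SFCs and 59.1, 243 and 52.2 CPM in starved AFCs (adjusted p = 0.0328), and a fed AFC mean of 448 CPM. These Lsp genes were the only called genes among 12 fat body markers tested, whose median log2 fold change was 1.41. Over all genes, 1.24% were called higher. Of the 12, 7 had an unadjusted p below 0.05, against 17.9% of all genes, and DESeq2 called 4 higher and 1 lower. In 6 the SFC libraries were all above the starved libraries and in 2 all below, against 11.2% and 13.5% of all genes. Transferrin (Tsf1), another fat body product, had 400.2, 833 and 560.2 CPM in fed SFCs and 244, 331 and 175 CPM in starved AFCs (adjusted p = 0.106). Neither Lsp gene was called without starved AFC replicate 1 or starved AFC replicate 3, or, in the case of Lsp1beta, without fed SFC replicate 3 (adjusted p up to 0.0949), and Lsp2 was not called without fed SFC replicate 2 or 3 either (adjusted p up to 0.1085).

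Eggshell genes were not called. Chorion proteins, which follicle cells secrete late in oogenesis, had a median log2 fold change of 0.66 over 14 genes tested. None was called by edgeR or limma-voom, 7 had an unadjusted p below 0.05, against 17.9% of all genes, and DESeq2 called 3 higher. In 7 the SFC libraries were all above the starved libraries and in 1 all below, against 11.2% and 13.5% of all genes. Without fed AFC replicate 2, edgeR called 1 higher. Cp36 had 639, 615 and 472 CPM in fed SFCs and 596, 267 and 558 CPM in starved AFCs (adjusted p = 0.692), against a fed AFC mean of 1782 CPM. Cp7Fa came closest, with 92.4, 54.3 and 55.8 CPM in fed SFCs and 35.3, 18.8 and 26.9 CPM in starved AFCs (adjusted p = 0.0643). Over the list, the median log2 fold change against fed AFCs was -1.46 in SFCs and -1.93 in starved AFCs. Vm26Aa, a vitelline membrane gene active earlier than the chorion genes, had 168, 358 and 453 CPM in fed SFCs and 787, 526 and 654 CPM in starved AFCs, without overlap (adjusted p = 0.21). Of 13 vitelline membrane genes tested edgeR and limma-voom called none, DESeq2 called 1 lower, and 4 had an unadjusted p below 0.05. In 4 the SFC libraries were all below the starved libraries and in none all above.

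Calls among genes of clearance were near or below the 2.22% of all genes. No gene was called by edgeR among 18 engulfment genes, 33 lysosome genes, 23 autophagy genes or 17 caspases and apoptosis regulators, with 2, 12, 2 and 4 genes at an unadjusted p below 0.05, against 17.9% of all genes. DESeq2 called 2, 5, 0 and 1 genes of these lists and limma-voom 0, 2, 0 and 0. Without fed SFC replicate 1, edgeR called 3 lysosome genes lower, and without fed AFC replicate 1 or 2 it called 1. It also called 1 with DESeq2 size factors, without a filter, at 50 counts in 3 libraries and with the 6 libraries only. The same held without rRNA genes or without the 10 highest genes. The median log2 fold changes of these lists were 0.11, -0.11, -0.13 and -0.19. Summed lysosome, autophagy and caspase levels were lower in every SFC library than in any starved library, and engulfment sums overlapped. Lysosome genes summed to 1796 to 2298 CPM in fed SFCs and 2609 to 2948 CPM in starved AFCs. In 7 lysosome genes the SFC libraries were all above the starved libraries and in 8 all below, against 11.2% and 13.5% of all genes. The engulfment receptor gene drpr had 28.4, 37.7 and 42.5 CPM in fed SFCs and 26.9, 40.0 and 32.5 CPM in starved AFCs, with a log2 fold change of 0.13 ± 0.25. Among 27 genes of the V-ATPase, the proton pump that acidifies lysosomes and other compartments, Vha68-1 was called. It had 20.9, 26.2 and 26.5 CPM in fed SFCs and 3.06, 7.17 and 6.27 CPM in starved AFCs (log2 fold change 2.16 ± 0.39, adjusted p = 0.0138), and lost its call without starved AFC replicate 1 (adjusted p = 0.0565).

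Most genes of protein synthesis had negative log2 fold changes, but few were called. Of 84 cytoplasmic ribosomal protein genes tested 83 had a negative log2 fold change, 60 had SFC libraries all below the starved libraries, as had 13.5% of all genes tested, and the median was -0.88. By edgeR none was called although 51 had an unadjusted p below 0.05, against 17.9% of all genes. Limma-voom called none either, and DESeq2 called 44, all lower. Without fed SFC replicate 1 edgeR called 1 lower, and without fed AFC replicate 2 it called 2. Their summed level was 131790, 163040 and 93823 CPM in fed SFCs and 280790, 189750 and 236640 CPM in starved AFCs, against a range of 158300 to 345520 CPM in fed AFCs. RpL41, of the large subunit, had 2322, 2289.6 and 896 CPM in fed SFCs and 4220.4, 2623 and 5221 CPM in starved AFCs (adjusted p = 0.187). RpS2, of the small subunit, had 1837, 3301 and 2041 CPM in fed SFCs and 5897, 2640.1 and 3022 CPM in starved AFCs, with overlap (adjusted p = 0.373). The translation initiation factor gene eIF3g1 was called, with 136, 161 and 119.9 CPM in fed SFCs and 433, 366 and 341 CPM in starved AFCs (log2 fold change -1.45 ± 0.24, adjusted p = 0.00919). It was the only called gene of 45 translation factors tested, a share at the 2.22% of all genes. Of the 45, 35 had a negative log2 fold change, with a median of -0.34, and DESeq2 called 7 lower and 1 higher. Spase12, a subunit of the signal peptidase that trims secreted proteins, was also called, with 51.2, 49 and 37 CPM in fed SFCs and 133, 90.2 and 134 CPM in starved AFCs (adjusted p = 0.0119). It was the only called gene of 21 tested for protein targeting to the ER, but 12 had an unadjusted p below 0.05 and DESeq2 called 6, all lower. Of the 21, 19 had a negative log2 fold change, with a median of -0.51, and in 11 the SFC libraries were all below the starved libraries. Mitochondrial ribosomal proteins and the proteasome had medians of -0.40 over 73 genes and -0.46 over 32, with no call by edgeR or limma-voom, 19 and 9 genes at an unadjusted p below 0.05, and 5 and 4 genes called lower by DESeq2. Without fed SFC replicate 1, edgeR called 5 mitochondrial ribosomal protein genes lower, and without starved AFC replicate 2 it called 1. Both eIF3g1 and Spase12 lost their calls without fed SFC replicate 2 (adjusted p up to 0.0555 and 0.0696), and Spase12 also without starved AFC replicate 1.

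Transcript length moved with this comparison. Over the genes tested, the median log2 fold change was -0.27 in the fifth with the shortest exons and 0.33 in the fifth with the longest, and ribosomal protein genes had a median exon length of 909.5 bases against 2026 over all genes tested. With the length trend removed, a step added after the data were seen, the ribosomal protein median was -0.66, the sarcomere median 0.95 and the Toll effector median 1.79. The part of length in these differences was not tested further.

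**Figure D4:**
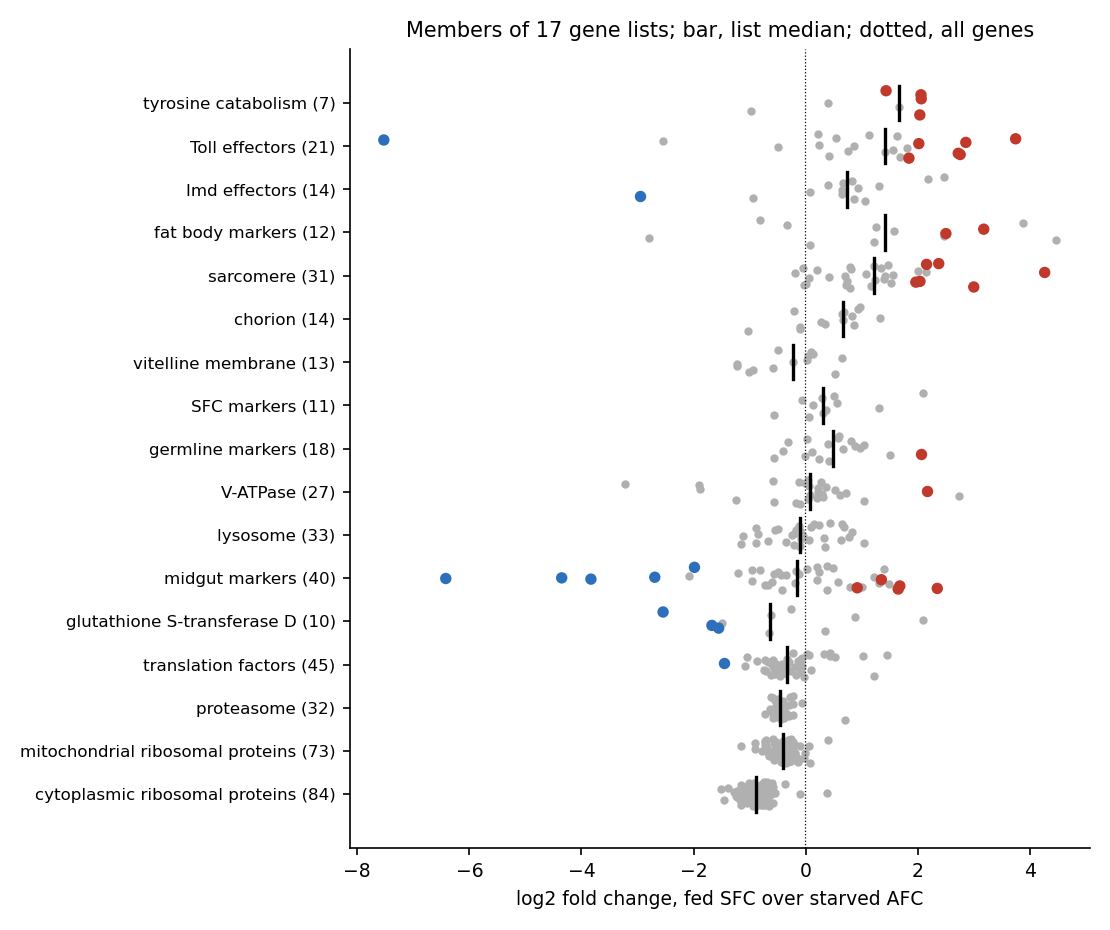
Log2 fold change of fed SFC over starved AFC (horizontal axis) for each tested member of 17 gene lists, with the number tested in brackets. Red and blue points are called higher and lower, gray points are not called, bars are list medians and the dotted line is the median of all genes; ribosomal proteins lie left of the line almost as a block, while midgut and Toll effector genes spread to both sides.

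**Figure D5:**
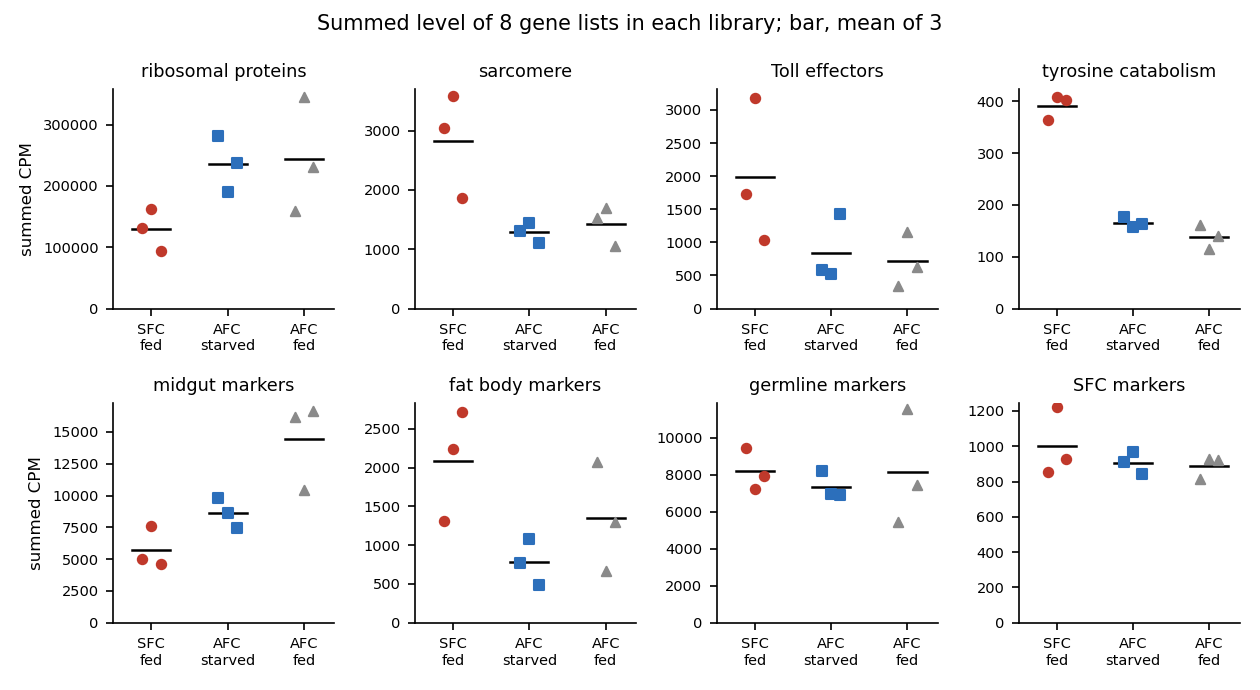
Summed CPM of 8 gene lists (vertical axes from 0) in each library of fed SFC (red circles), starved AFC (blue squares) and fed AFC (gray triangles), with the mean of 3 as a bar. Ribosomal protein sums are lower and sarcomere, tyrosine catabolism and fat body sums higher in all 3 SFC libraries than in the starved libraries, while SFC marker and germline sums overlap.

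With rRNA genes left out, the genes with the highest mean CPM in fed SFCs were whe, Yp3, Yp1, MtnA and lcs. Those in starved AFCs were Yp1, Yp3, whe, MtnA and RpL10. Yp1 and Yp3 encode yolk proteins, which follicle cells and fat body secrete for the oocyte. Yp1 had 7578, 14095 and 18941 CPM in fed SFCs and 10626, 10371 and 5718 CPM in starved AFCs, with overlap (adjusted p = 0.515). The gene whe had 10562, 21658 and 12884 CPM in fed SFCs and 6755, 5420.1 and 7129 CPM in starved AFCs, without overlap but not called (adjusted p = 0.162). Of these abundant genes lcs was the only called gene, with 7147, 11931 and 5523 CPM in fed SFCs and 1775, 1927 and 2287 CPM in starved AFCs (log2 fold change 2.04 ± 0.46, adjusted p = 0.0399). Its call was lost without fed SFC replicate 2, any 1 starved library or fed AFC replicate 3 (adjusted p up to 0.172). MtnA had 5039.7, 19301 and 13071 CPM in fed SFCs and 3398, 2934 and 11676 CPM in starved AFCs, so that within the metallothioneins MtnB was called lower and MtnA was not called (adjusted p = 0.398).

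Several other lists held 1 called gene each, namely Unc-115b of 37 genes of nonmuscle actomyosin and its regulators, numb of 14 Notch genes, Ilp8 of 17 JNK genes, Sox14 of 19 ecdysone genes, Hsp68 of 17 heat shock genes and Pepck2 of 32 genes of nutrient sensing. With 2.22% of all genes called, 1 call in a list of such a size is near the background. Unc-115b, which encodes an actin-binding protein, had 97.9, 146 and 111 CPM in fed SFCs and 54.4, 44.5 and 36.3 CPM in starved AFCs (adjusted p = 0.0204), and numb, an inhibitor of Notch, was 2.45-fold higher in the SFC mean (adjusted p = 0.0469). Ilp8, the relaxin-like peptide that delays growth after tissue damage and is made by follicle cells around ovulation, had 37.8, 26.1 and 30.6 CPM in fed SFCs and 95.9, 47 and 114.7 CPM in starved AFCs (log2 fold change -1.45 ± 0.33, adjusted p = 0.0457). Sox14, a transcription factor downstream of ecdysone, had 16.2, 23.6 and 22.2 CPM in fed SFCs and 59.1, 44.1 and 45.6 CPM in starved AFCs (adjusted p = 0.0356). Hsp68, a heat shock gene, and Pepck2, of the family of gluconeogenic carboxykinases, were 4.42-fold and 4.21-fold lower in the SFC means (adjusted p = 0.0393 and 0.0171). Thor, the 4E-BP translation inhibitor that insulin signalling holds down, had 218, 481 and 278 CPM in fed SFCs and 365, 479.8 and 679.6 CPM in starved AFCs (adjusted p = 0.357). Several of these calls rested on few libraries, since numb kept its call in 1, Sox14 in 2, Ilp8 in 3, Unc-115b and Hsp68 in 6 and Pepck2 in 7 of the 9 cases with 1 library left out.

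Germline transcripts were present in every library. The maternal gene bcd, whose mRNA is localized to the anterior of the oocyte, had 103, 74.4 and 83.1 CPM in fed SFCs and 27, 24.1 and 11.7 CPM in starved AFCs (log2 fold change 2.05 ± 0.34, adjusted p = 0.0091). It was the only called gene among 18 germline markers, whose median log2 fold change was 0.49, and it was called with any single library left out. Of the 18, 7 had an unadjusted p below 0.05, against 17.9% of all genes, and DESeq2 called 4 higher and none lower. In 8 the SFC libraries were all above the starved libraries and in 1 all below, against 11.2% and 13.5% of all genes. The oocyte determinant osk had 1279, 614 and 830.1 CPM in fed SFCs and 534, 453 and 331 CPM in starved AFCs, without overlap (adjusted p = 0.148). For dhd, a germline thioredoxin, the groups overlapped, with 5904, 4978 and 4980.5 CPM in fed SFCs and 5535, 4481 and 4680.0 CPM in starved AFCs (adjusted p = 0.914).

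In metabolism, 2 of 9 genes of inositol metabolism were called higher, against 1.24% of all genes. They were the neighbouring inositol monophosphatase genes CG17027 and CG17029. CG17027 had 41.8, 59.4 and 38.9 CPM in fed SFCs and 7.05, 11.5 and 14.1 CPM in starved AFCs (log2 fold change 2.10 ± 0.37, adjusted p = 0.0129). CG17029 had 269, 354 and 230.2 CPM in fed SFCs and 75.1, 102 and 138 CPM in starved AFCs (adjusted p = 0.0482), and kept its call in 2 of the 9 cases with 1 library left out. The call of CG17027 was lost without starved AFC replicate 1 (adjusted p = 0.0531). Of 11 Malpighian tubule markers tested Alp4, an alkaline phosphatase of the tubules, was called, with 92.8, 104 and 106 CPM in fed SFCs and 57.8, 52.6 and 38.1 CPM in starved AFCs (adjusted p = 0.0399), in 3 of the 9 such cases. Uro, the urate oxidase gene of the tubules, had 378, 540.3 and 479 CPM in fed SFCs and 188, 352 and 624 CPM in starved AFCs, with overlap, and the part of tubule mRNA in the Alp4 difference was not tested.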

How the data were processed

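Per the labels and the methods, libraries were made with the unstranded TruSeq v2 kit from poly(A) RNA, and the authors quantified reads with Salmon 1.1.0 on BDGP6. The deposited expected counts per transcript are not normalized; the authors' Salmon TPM, which use effective lengths, were not tested. Transcripts were joined to genes by identifier with the BDGP6.54 annotation (30179 of 30215 matched, 14077 genes), whose coordinates are given, and summed counts were rounded. The test was edgeR 4.0.16 (R 4.3.3): TMM scaling, filterByExpr (minimum count 10), 1 mean per group, quasi-likelihood F test over all 9 libraries, Benjamini-Hochberg adjustment. The common dispersion was 0.362. CPM are counts over the TMM-scaled library size. P-values measure the spread between the labelled replicates. Genes named are the 10 higher and 10 lower of smallest adjusted p, and the 5 of largest fold change at 10 CPM or more. Also named are the 5 highest per group (rRNA genes left out), RpL10Ab and members of 46 lists (918 entries). The members and lists were chosen with earlier results of these data known. DESeq2 1.42.0, limma-voom (limma 3.58.1) and other alternatives were tried. The functions were tested on simulated counts. No sequences are shown.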

Additional observations from a re-analysis of the deposited data

How the results depend on the processing

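No gene called in both the main test and an alternative changed direction, and no named gene called in either setting changed sign. Signs of other genes were not compared. Some list medians near 0 changed sign. The midgut median went from -0.15 to 0.23 with the length trend removed, and the autophagy median from -0.13 to 0.05 without fed SFC replicate 2. The counts of 135 higher and 106 lower genes became 132 and 120 with DESeq2 size factors, 166 and 130 without a filter, 143 and 132 at 50 counts in 3 libraries, 138 and 109 without rRNA genes, 140 and 113 without the 10 highest genes, 124 and 87 with the 6 libraries only, 107 and 84 with limma-voom, and 178 and 100 with the length trend removed, an alternative chosen after seeing the data. DESeq2 gave 462 and 429, and 419 and 400 with length offsets. At an adjusted p of 0.01, 36 and 26 were called. With the replicate number as a block there were 87 higher and 76 lower genes, 147 of them among the 241. Same-numbered fed SFC and starved AFC libraries correlated at 0.081, -0.117 and -0.101 in their deviations from the group means. With 3 libraries in a group, these values cannot settle whether libraries of the same number were made together. With 1 library left out, the counts ranged from 52 to 220 higher and 44 to 163 lower genes. Of 2659 values of named genes under alternatives, 2341 kept their side of the threshold, 263 lost a call and 55 gained one; of 918 list medians, 70 moved by more than the spread between replicates. The cause of these shifts was not tested. The depth, 30551253 reads or more per library, leaves genes with few reads the widest error.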

Other observations

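Further gene families, picked after their values were seen, were counted in the same way. Over all genes, 1.24% were called higher and 0.975% lower. Of 6 metallothionein genes tested, MtnB, MtnD and MtnE were called lower in fed SFCs, and the median log2 fold change was -1.88. MtnD had 24.8, 50.3 and 34.2 CPM in fed SFCs and 73.5, 86.3 and 229 CPM in starved AFCs (adjusted p = 0.036), and MtnE had 42.3, 125 and 48.2 CPM in fed SFCs and 157, 216 and 445 CPM in starved AFCs (adjusted p = 0.0462). Of 20 genes of the odorant-binding protein family, 4 were called higher and none lower, with a median of 0.78. Beside Obp56a these were Obp56d, with 98.4, 62.6 and 15.9 CPM in fed SFCs and 2.17, 4.4 and 3.17 CPM in starved AFCs (adjusted p = 0.00343), Obp57c (6.88-fold) and Obp99a (3.09-fold). Of 31 genes of the CPR family of cuticle proteins, 4 were called higher and none lower, although the median was -0.11. Cpr67B had 31, 57.3 and 7.99 CPM in fed SFCs and 1.64, 2.15 and 5.09 CPM in starved AFCs (adjusted p = 0.0204), and Cpr49Ab, Cpr49Ae and Cpr65Au were 2.92-fold, 8.71-fold and 7.3-fold higher. Limma-voom called 2 of the 20 odorant-binding protein genes and 1 of the 31 CPR genes, and DESeq2 called 7 and 6. Limma-voom did not call Obp56a, Obp56d, Cpr49Ae, Cpr65Au or Cpr67B. Of 81 cytochrome P450 genes Cyp303a1, Cyp6a17 and Cyp6a18 were called higher and Cyp4p2 lower, with a median of 0.36. Of 8 Osiris genes none was called by edgeR, DESeq2 or limma-voom, and none had an unadjusted p below 0.05.

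Single genes outside the naming rule also stood out and were likewise picked after their values were seen. Cyp6a17, a cytochrome P450 gene, had 7.73, 15.3 and 6.47 CPM in fed SFCs and 0, 0.191 and 0 CPM in starved AFCs (adjusted p = 0.0313), and 0.183, 0.0256 and 0 CPM in fed AFCs. Akh, the adipokinetic hormone gene, which mobilizes stored energy, had 1.22, 1.85 and 0.525 CPM in fed SFCs and 8.67, 6.65 and 11.7 CPM in starved AFCs (adjusted p = 0.0318). The eye colour gene w, used as a marker on many fly transgenes, had 16.2, 24.8 and 17.9 CPM in fed SFCs and 49.9, 45.4 and 112 CPM in starved AFCs (adjusted p = 0.0196). CG43134 had 322, 277 and 135 CPM in fed SFCs and 2479, 832 and 2499.9 CPM in starved AFCs (adjusted p = 0.0091). CG45080 had 2629, 9379 and 4247 CPM in fed SFCs and 649.6, 669.9 and 1583 CPM in starved AFCs (adjusted p = 0.0447). With 1 library left out in turn, Obp56d, Obp57c, Cpr49Ab and CG43134 were called in all 9 cases, w in 7, Obp99a and Cpr67B in 6, Cyp6a17, MtnD, Cpr49Ae and Cpr65Au in 5, and Akh, MtnE and CG45080 in 4.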
